A study of Homo sapiens with 8 samples.

Results

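Pre-mRNA splicing factors were followed in MP38, a BAP1-mutant uveal melanoma cell line, after exposure to 2 histone deacetylase (HDAC) inhibitors and 1 inhibitor of the BET bromodomain proteins. Gene symbols were taken by name from the count table: the SRSF, HNRNP, SF3A and SF3B, U2AF, RBFOX, NOVA, PTBP and CELF families. The pattern matched 61 of 35238 symbols after 29 pseudogenes had been left out, and it passed over HNRNPA2B1, whose symbol has another form. The members were 12 SRSF, 24 HNRNP, 9 SF3, 2 U2AF, 3 PTBP, 3 RBFOX, 2 NOVA and 6 CELF genes. They were divided into 52 general factors and 9 neuronal factors. The neuronal factors were RBFOX1, RBFOX3, NOVA1, NOVA2, PTBP2, CELF3, CELF4, CELF5 and CELF6, which are known for expression mainly in neurons.

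Cells of the line were grown for 24 h in medium with 0.1% DMSO, the control, or with a drug at the same DMSO concentration: romidepsin at 40 nM, quisinostat at 40 nM and mivebresib at 1200 nM. Romidepsin and quisinostat inhibit HDACs, the enzymes that take acetyl groups off histones. Mivebresib keeps BET proteins, which read acetylated histones, off chromatin. Each group had 2 libraries of polyadenylated RNA, made from separate wells of 1 cell line, so the p-values measure the spread between these wells. The study chose the concentrations for visible effects on the cells without excessive death after 24 h, and the doses of the 2 drug classes differ.

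Splicing removes introns in steps carried out by small nuclear ribonucleoproteins and helper proteins. U2AF binds the end of the intron, SF3A and SF3B sit in the U2 particle that takes hold of the branch point, SR proteins (SRSF) bind exons and favour their use, and HNRNP proteins coat the transcript and often block splice sites. A smaller set of tissue regulators adds cell-type programmes: PTBP1 holds back neuronal exons outside the nervous system, whereas PTBP2, NOVA, RBFOX and several CELF proteins set the splicing pattern of neurons. SF3B1 is recurrently mutated in uveal melanoma, and RNA levels carry no information on such mutations or on protein.

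Total counts ran from 28483235 to 29359024 per library, so depth differed little. No pair of replicates was identical. A chi-square per degree of freedom over genes was 58.1 between the 2 control libraries and 9.52 to 9.79 between those of each drug, so the controls differed most. Of 7 melanocyte markers, 5 were above 100 normalised CPM (counts scaled to a library's TMM-adjusted total) in every control library, TYR was at 1.77 and 3.43, and DCT was near 0. Of 5 immune markers, CD3E was at 0 in every library and CD68, a lysosomal protein gene of macrophages, was at 61.1 to 82.99 normalised CPM, with no call for any drug. The 6 fibroblast markers summed to 1.98 and 2.48 normalised CPM in the control libraries, 5.46 and 4.24 with romidepsin, 10.9 and 8.44 with quisinostat and 1.28 and 1.76 with mivebresib. Most of this was COL1A1, a collagen gene called higher with romidepsin (1.51) and quisinostat (2.58), while LUM had 1 count in 1 library. The 3 endothelial markers summed to less than 1 normalised CPM in every library. CDH5 was at 0 throughout, and PECAM1, with 2 to 17 counts, was called higher with quisinostat (1.78). PECAM1 passed the filter on low counts through the quisinostat libraries alone, so that direction was favoured by the filter. The part of these markers in the results was not tested. In bulk libraries fewer cells of a type and less RNA per cell cannot be told apart.

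Promoter sequences of the members were set beside those of all promoters, and their part in the changes below was not tested. Windows from 250 bases before to 50 bases after the RefSeq start site (GRCh38.p14) were found for 56 of the 61 members. The E-box CACGTG was in 17% of the 47 general windows, in 0 of the 9 neuronal ones and in 7.26% of 35116 promoters. Each member, all of them protein-coding, gave 1 window. The 35116 promoters were every window listed, with no choice of gene type, so the sets are unlike. The ETS string CCGGAAG was in 27.7% of the general windows, in 1 neuronal window and in 10.3% of all promoters. It occurred in 6 of 8 SF3 windows, and the E-box in 7 of 22 HNRNP windows. TGACGTCA (1.79% of members against 1.85% of all) and TATAAA (10.7% against 11.5%) were near the share of all promoters. Strings were read on both strands, and none of the 4 contains another. The median GC content was 64.5% in the members' windows and 58.7% over all promoters. The median number of CG pairs (CpG) per window was 30 and 14. The E-box, the ETS string and TGACGTCA each contain CG, and the part of base composition in these shares was not tested. Such a match describes the letters and is not a binding site.

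The 250 bases before the start of 4 members are printed because these genes show the 4 patterns described below: HNRNPD fell most with mivebresib among general factors, U2AF2 fell with both HDAC inhibitors, CELF5 rose with quisinostat and with mivebresib, and NOVA2 rose with both HDAC inhibitors. The windows are at chr4:82373992-82374241, minus strand for HNRNPD, chr19:55654785-55655034, plus strand for U2AF2, chr19:3224411-3224660, plus strand for CELF5 and chr19:45973866-45974115, minus strand for NOVA2. Capitals mark the E-box, at position -27 in HNRNPD, and the ETS string, at -183 in HNRNPD, -30 in U2AF2 and -158 in CELF5, counted to the first base from the start. NOVA2 held neither. GENCODE 29 also places starts farther upstream for HNRNPD and U2AF2.
HNRNPD: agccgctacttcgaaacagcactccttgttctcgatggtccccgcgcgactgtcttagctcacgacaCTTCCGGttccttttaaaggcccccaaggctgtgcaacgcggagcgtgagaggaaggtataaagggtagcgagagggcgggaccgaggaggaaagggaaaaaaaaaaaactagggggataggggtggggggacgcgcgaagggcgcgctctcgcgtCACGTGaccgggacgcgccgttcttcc
U2AF2: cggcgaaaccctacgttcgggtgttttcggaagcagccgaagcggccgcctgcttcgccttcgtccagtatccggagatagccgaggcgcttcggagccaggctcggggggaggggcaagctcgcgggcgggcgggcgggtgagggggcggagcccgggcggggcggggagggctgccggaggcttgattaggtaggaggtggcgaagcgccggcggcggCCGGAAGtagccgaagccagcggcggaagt
CELF5: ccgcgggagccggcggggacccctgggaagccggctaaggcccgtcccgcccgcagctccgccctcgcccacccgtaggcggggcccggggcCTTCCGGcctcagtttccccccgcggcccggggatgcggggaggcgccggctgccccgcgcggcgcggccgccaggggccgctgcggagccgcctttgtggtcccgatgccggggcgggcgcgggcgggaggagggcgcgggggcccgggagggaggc
NOVA2: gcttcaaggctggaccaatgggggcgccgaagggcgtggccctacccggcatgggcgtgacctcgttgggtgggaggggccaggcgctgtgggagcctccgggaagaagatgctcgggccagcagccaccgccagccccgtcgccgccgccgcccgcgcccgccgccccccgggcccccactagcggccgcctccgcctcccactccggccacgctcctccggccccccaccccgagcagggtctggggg

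General factors were mostly lower with the HDAC inhibitors, and more of them with quisinostat. After a filter on low counts, 55 members were tested, 48 general and 7 neuronal. With romidepsin, 22 general factors fell and 3 rose (adjusted p below 0.05), against 15.8% and 15.2% of all 15085 symbols tested. With quisinostat, 37 fell and 3 rose, where the shares over all symbols were 25.1% and 28%. With mivebresib, 17 fell and 5 rose, beside 24.1% and 22.2% of all symbols. Among the 5994 symbols with a mean log2 CPM of at least 5, a range in which most general factors lie, the shares that fell were 19.6%, 39.7% and 26.4% for romidepsin, quisinostat and mivebresib, and the shares that rose 10.9%, 12% and 20.7%. The share of general factors that fell was 45.8%, 77.1% and 35.4%, so for mivebresib it was nearest to the share of all such symbols.

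The median log2 fold change (FC) of the 48 general factors was -0.26 with romidepsin, -0.58 with quisinostat and -0.15 with mivebresib, where the medians over all symbols lay between -0.012 and 0.0067. Scaling by library size alone moved the median symbol by 0.20 for quisinostat and the general median to -0.38, and upper-quartile scaling moved them by 0.13 and to -0.45. No general factor fell by more than 1.5 on the log2 scale with any drug, and SRSF12 alone rose by more, with quisinostat; over all symbols 0.312%, 1.03% and 4.36% fell and 3.77%, 11.2% and 3.96% rose past that size with romidepsin, quisinostat and mivebresib. Changes of every tested member are drawn in the plot of fold changes by family.

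**Figure D1:**
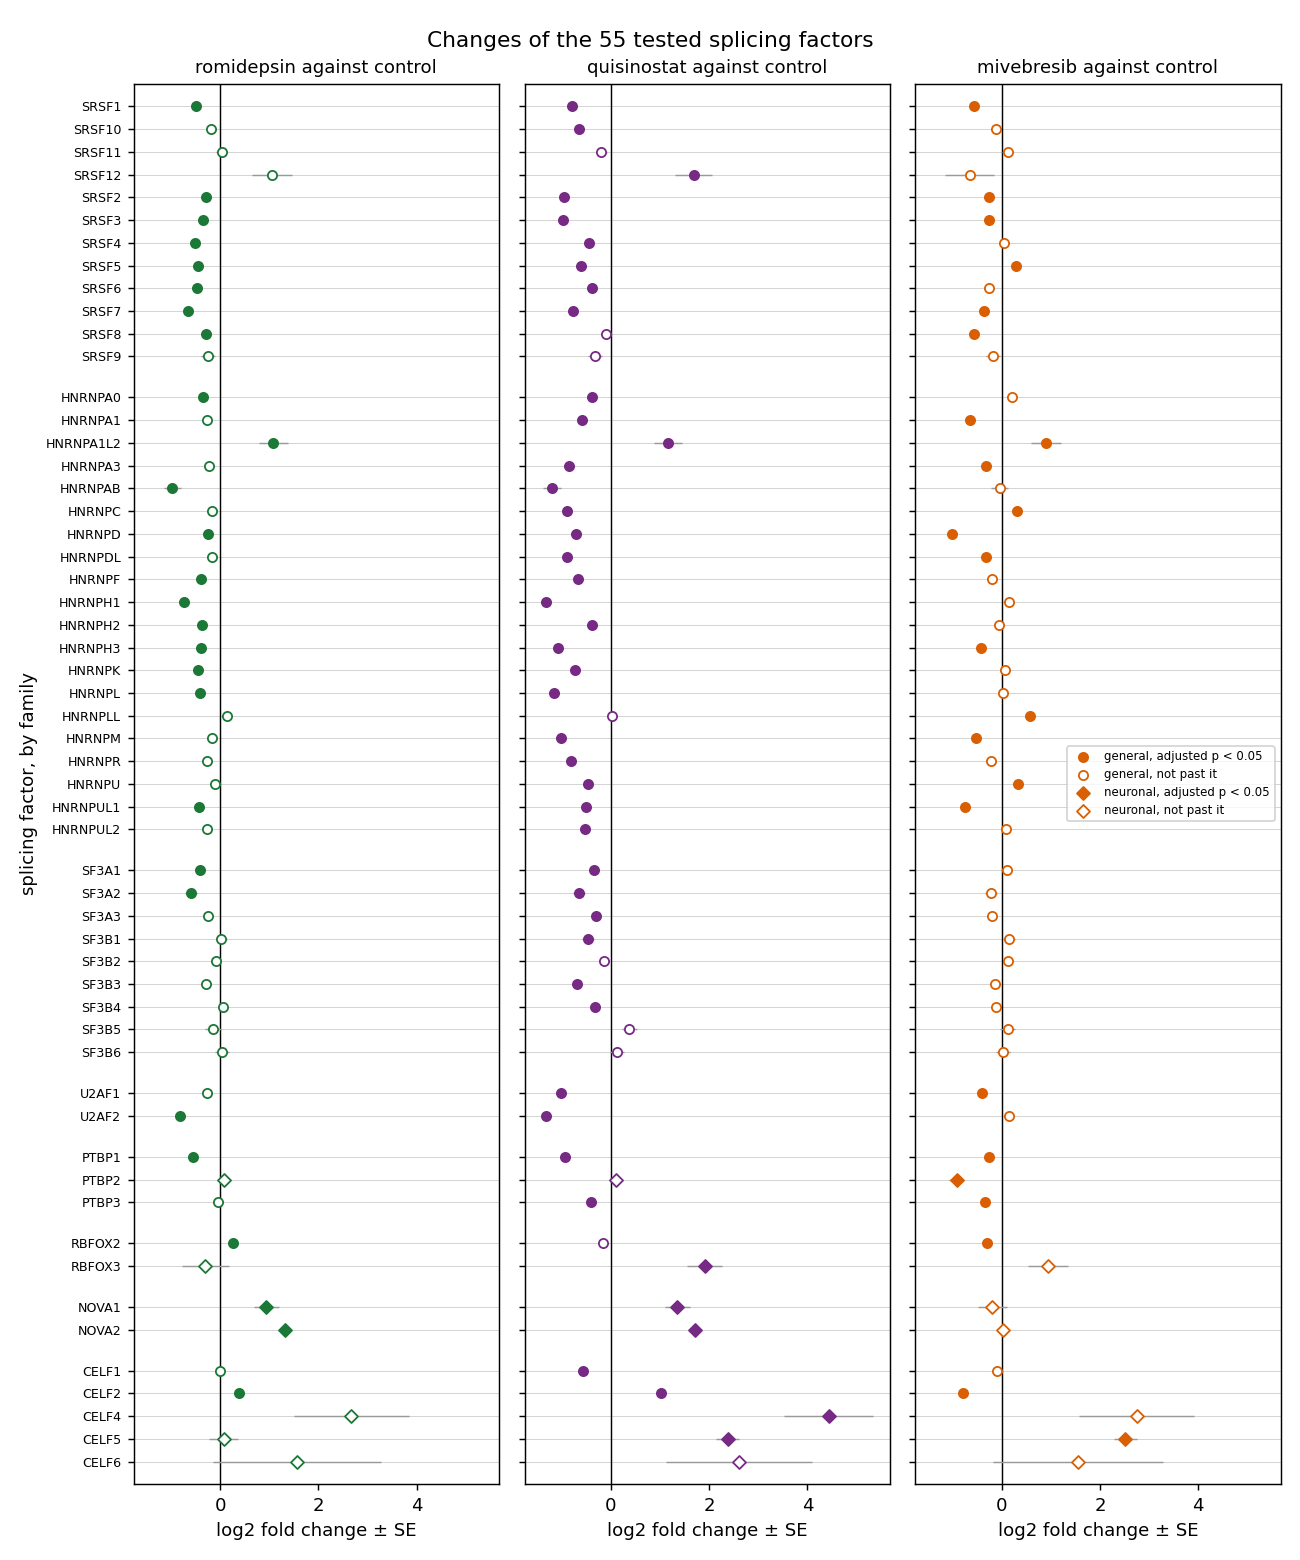
Log2 fold change against control (horizontal axis, ± SE) of the 55 tested splicing factors, by family, for romidepsin, quisinostat and mivebresib; circles are general and diamonds neuronal factors, filled where the adjusted p was below 0.05. General factors lie mostly left of 0 in the quisinostat panel (37 fell). There 5 of 7 neuronal factors rose, beside 28% of all symbols. CELF4 and RBFOX3 among them did not reach the minimum of the count filter in the control libraries, so this count leans upwards by construction.

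Together, the 52 general factors took 0.952% and 0.912% of all counts in the control libraries, 0.797% and 0.812% with romidepsin, 0.692% and 0.676% with quisinostat, and 0.859% and 0.883% with mivebresib. Every drug library was below both control libraries, and the quisinostat libraries were the lowest. The 9 neuronal factors took 18.2 and 17.4 CPM, here of all counts, in the control libraries, 35.8 and 36.4 with romidepsin, 52.3 and 54.3 with quisinostat, and 17.2 and 19.4 with mivebresib. NOVA2 held between 52.8% and 72.6% of these neuronal counts in each library. Without NOVA2 the sums were 8.24 and 7.86 in the control libraries, 10.9 and 9.98 with romidepsin, 16.2 and 16.8 with quisinostat, and 7.38 and 9.16 with mivebresib. The neuronal sum with mivebresib thus overlapped the control range, although its make-up changed, as the plot of class totals shows.

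**Figure D2:**
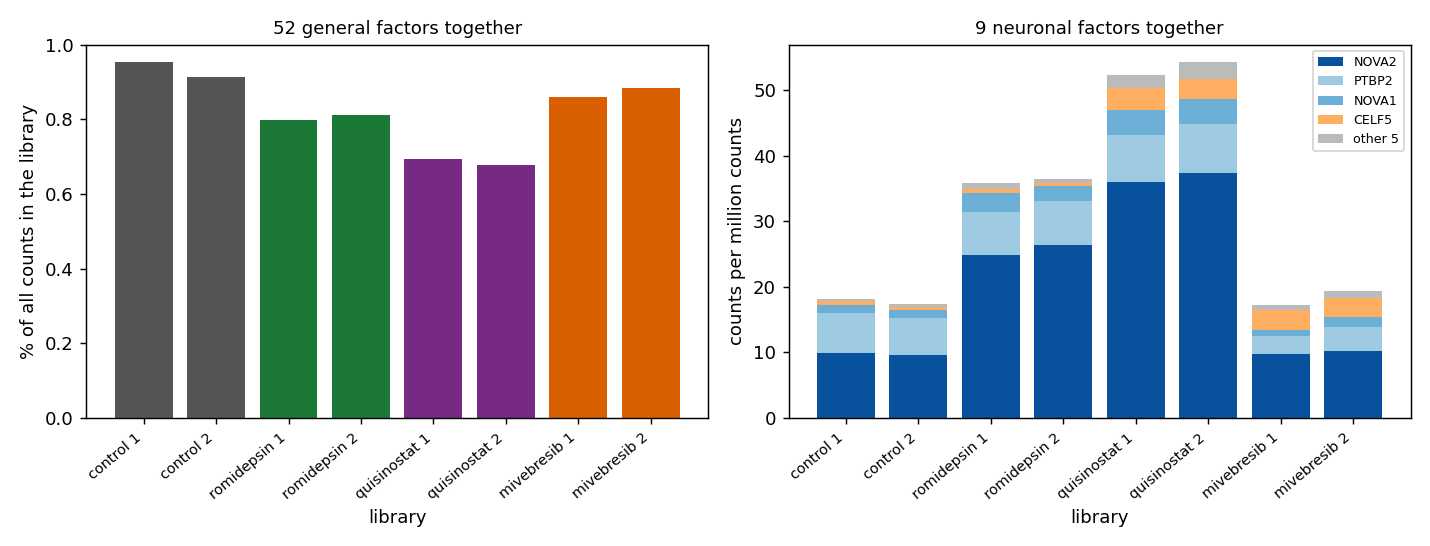
Share of all counts taken by the 52 general factors (left, %) and CPM of the 9 neuronal factors (right, stacked by gene) in each of the 8 libraries. The general share is lowest in the 2 quisinostat libraries, and the neuronal sum there, 52.3 and 54.3, is made up mostly of NOVA2.

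HNRNP genes made up the largest family, and 20 of the 24 were tested. With romidepsin 10 fell and HNRNPA1L2 rose, with quisinostat 18 fell and HNRNPA1L2 rose, and with mivebresib 7 fell and 4 rose. The shares that fell were 50%, 90% and 35%, beside 15.8%, 25.1% and 24.1% of all symbols. By length-scaled control level the most abundant members were HNRNPA1 (512.8 CPM per kb of median transcript length), HNRNPC (321.8) and HNRNPA3 (245.7), all of this family. These are shuttling or nuclear RNA-coating proteins: HNRNPA1 favours exon skipping, and HNRNPC binds uridine tracts.

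HNRNPA1 (chr12:54280193-54287088 on GRCh38, as all gene positions here) stood at 986 and 903 normalised CPM in the control libraries, 763 and 800.4 with romidepsin, 651 and 603 with quisinostat and 598 and 605 with mivebresib. All drug libraries were below both controls. The log2 FC was -0.27 ± 0.093 (adjusted p = 0.055) with romidepsin, -0.59 ± 0.093 (adjusted p = 0.00088) with quisinostat and -0.65 ± 0.093 (adjusted p = 0.000637) with mivebresib; 30.1% of the 31-base words in its transcripts also occur in other genes, mainly pseudogenes. HNRNPC (chr14:21209136-21269494) was at 536 and 494 normalised CPM in the control libraries, 438 and 483 with romidepsin, 286 and 270.2 with quisinostat and 647 and 623 with mivebresib. Its groups separated into low quisinostat and high mivebresib libraries, with log2 FC -0.89 ± 0.094 (adjusted p = 0.000101) and 0.30 ± 0.093 (adjusted p = 0.0266), and -0.16 ± 0.093 (adjusted p = 0.22) with romidepsin. HNRNPA3 (chr2:177212563-177223958) was at 533 and 482 normalised CPM in the control libraries, 423 and 446 with romidepsin, 284 and 277 with quisinostat and 414 and 395 with mivebresib. It was lowest with quisinostat, at log2 FC -0.86 ± 0.089 (adjusted p = 9.46e-05), against -0.33 ± 0.089 (adjusted p = 0.0158) with mivebresib and -0.23 ± 0.089 (adjusted p = 0.0855) with romidepsin. The mivebresib calls of HNRNPC and HNRNPA3 were lost when either mivebresib library was left out, at adjusted p = 0.13 and 0.0801, and 0.0525 and 0.101.

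A first set of HNRNP genes fell with the HDAC inhibitors and stayed near the control level with mivebresib. HNRNPH1 (chr5:179614178-179634784), which binds runs of G, was at 260.4 and 280.2 normalised CPM in the control libraries, 166 and 157 with romidepsin, 107 and 109 with quisinostat and 276 and 320.3 with mivebresib. Both HDAC inhibitors gave libraries below every control library, whereas mivebresib libraries overlapped the controls. The log2 FC was -0.74 ± 0.095 (adjusted p = 0.000879) with romidepsin and -1.32 ± 0.097 (adjusted p = 1.39e-05) with quisinostat, the largest fall in the family, and 0.14 ± 0.095 (adjusted p = 0.251) with mivebresib. HNRNPL (chr19:38836388-38852347), a binder of CA repeats, was at 212 and 213 normalised CPM in the control libraries, 163 and 158 with romidepsin, 97.9 and 93.2 with quisinostat and 216 and 217 with mivebresib. Its mivebresib libraries lay just above the controls and those of the HDAC inhibitors well below: log2 FC -0.41 ± 0.074 (adjusted p = 0.00429), -1.16 ± 0.075 (adjusted p = 7.96e-06) and 0.02 ± 0.074 (adjusted p = 0.81) in the order romidepsin, quisinostat and mivebresib. For mivebresib the 95% interval of this change was -0.14 to 0.19. HNRNPL shares 39.5% of its 31-base words with other genes, the most (24.2%) with the pseudogene HNRNPLP2. HNRNPAB (chr5:178204507-178211163) was at 403 and 280.4 normalised CPM in the control libraries, 158 and 191 with romidepsin, 136 and 161 with quisinostat and 355 and 308 with mivebresib. Here the control libraries differed from each other more than the mivebresib libraries did, and the HDAC inhibitor libraries were all lower. HNRNPAB changed by -0.97 ± 0.18 (adjusted p = 0.0048), -1.20 ± 0.18 (adjusted p = 0.000711) and -0.04 ± 0.18 (adjusted p = 0.862) in the same order, and without romidepsin replicate 1 the first became -0.84 (adjusted p = 0.0522).

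A second set fell with mivebresib too. HNRNPD (chr4:82352498-82374503), known as AUF1 for its part in the decay of AU-rich messages, was at 199.5 and 194 normalised CPM in the control libraries, 158 and 172 with romidepsin, 125 and 116 with quisinostat and 97.2 and 97.8 with mivebresib. The groups did not overlap, and mivebresib was lowest. Its log2 FC was -1.01 ± 0.083 (adjusted p = 3.42e-05) with mivebresib, the largest fall of any general factor with that drug, -0.71 ± 0.082 (adjusted p = 0.000169) with quisinostat and -0.26 ± 0.082 (adjusted p = 0.0449) with romidepsin. The romidepsin call was lost under 14 of the other settings tried. HNRNPM (chr19:8444767-8489114), which binds GU-rich RNA, was at 232 and 247 normalised CPM in the control libraries, 215 and 214 with romidepsin, 121 and 114 with quisinostat and 159 and 174 with mivebresib. Quisinostat libraries were the lowest and mivebresib libraries next, at log2 FC -1.03 ± 0.084 (adjusted p = 2.60e-05) and -0.53 ± 0.084 (adjusted p = 0.00112), and romidepsin gave -0.16 ± 0.083 (adjusted p = 0.181). HNRNPH3 (chr10:68331174-68343191) was at 144 and 139.9 normalised CPM in the control libraries, 107 and 109 with romidepsin, 67.6 and 67.8 with quisinostat and 104 and 109.7 with mivebresib. All drug libraries were lower than the controls and quisinostat libraries lowest, at log2 FC -0.39 ± 0.073 (adjusted p = 0.00475) (romidepsin), -1.07 ± 0.074 (adjusted p = 1.09e-05) (quisinostat) and -0.41 ± 0.073 (adjusted p = 0.00197) (mivebresib). HNRNPUL1, HNRNPDL, HNRNPA1 and HNRNPA3 also fell with mivebresib, and HNRNPUL1 changed by -0.43, -0.51 and -0.75 on the log2 scale in that order.

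**Figure D3:**
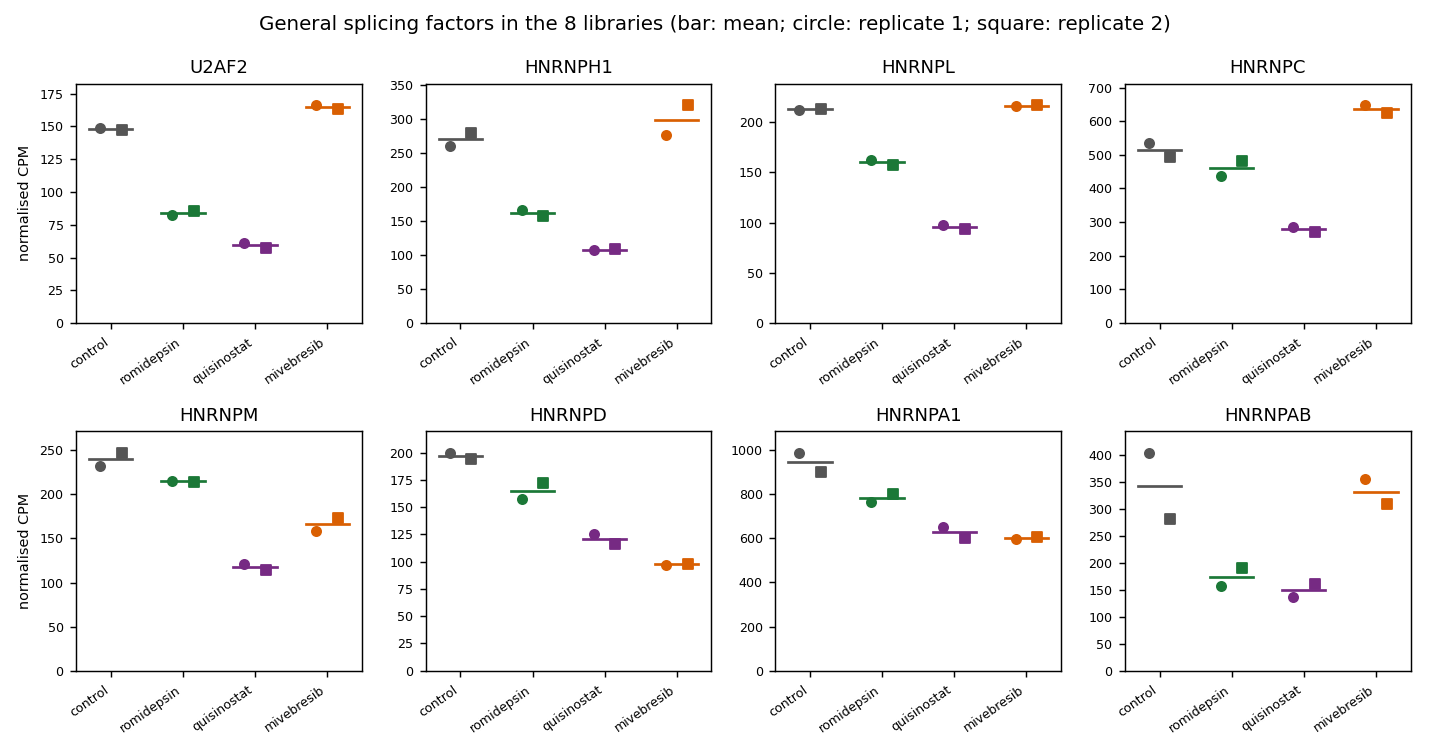
Normalised CPM (vertical axis, from 0) of 8 general factors in the 2 libraries of each group; circles are replicate 1, squares replicate 2 and bars the group mean. U2AF2, HNRNPH1, HNRNPL and HNRNPC are lowest with quisinostat and at or above the control level with mivebresib, while HNRNPD is lowest with mivebresib.

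HNRNP genes that rose with mivebresib were HNRNPC, HNRNPU, HNRNPLL and HNRNPA1L2. HNRNPU, a large protein of the nuclear scaffold, changed by -0.48 ± 0.094 (adjusted p = 0.00294) with quisinostat and 0.32 ± 0.094 (adjusted p = 0.0218) with mivebresib on the log2 scale; it shares 3502 exon bases with COX20 on the other strand, and its mivebresib call was lost under 6 settings. HNRNPLL, known for the exon switch of CD45 in T cells, changed by 0.58 ± 0.079 (adjusted p = 0.000528) with mivebresib, and by 0.15 and 0.01 with romidepsin and quisinostat, neither past the test. HNRNPA1L2 (chr13:52642425-52643796), a near copy of HNRNPA1, had 15 and 12 counts in the control libraries, 33 and 27 with romidepsin, 36 and 33 with quisinostat and 24 and 26 with mivebresib. Every drug library was above both controls, at log2 FC 1.08 ± 0.29 (adjusted p = 0.0246) (romidepsin), 1.17 ± 0.29 (adjusted p = 0.00898) (quisinostat) and 0.90 ± 0.30 (adjusted p = 0.0382) (mivebresib). These calls are uncertain, since 76.4% of its 31-base words occur in other genes and DESeq2 gave adjusted p = 0.102, 0.0576 and 0.18. HNRNPUL2 was past the test with quisinostat alone (-0.53), but when the counts of the readthrough symbol HNRNPUL2-BSCL2 were added, romidepsin (-0.26, adjusted p = 0.0341) and mivebresib (0.22, adjusted p = 0.0485) passed as well.

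The other HNRNP genes with a call were moderate. HNRNPK, a binder of C-rich RNA, changed by -0.45 with romidepsin and -0.74 with quisinostat, and HNRNPF by -0.40 and -0.67. For HNRNPK, 30.9% of its 31-base words occur in other genes. HNRNPR (-0.81) and HNRNPDL (-0.90) fell with quisinostat and were not called with romidepsin. Of the 4 untested HNRNP genes, HNRNPCL2 and HNRNPCL3 had counts in the quisinostat libraries only, 2 and 5 and 6 and 12. HNRNPCL3 was thus at least 2.65-fold higher there than a floor of 3 counts in each control library, and 86% of its 31-base words occur in other genes.

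Most SR protein genes fell with the HDAC inhibitors. All 12 SRSF genes were tested: 8 fell with romidepsin and none rose, 8 fell with quisinostat and SRSF12 rose, and 5 fell with mivebresib while SRSF5 rose. In percent, 66.7%, 66.7% and 41.7% fell, beside 15.8%, 25.1% and 24.1% of all symbols. SRSF3, the smallest SR protein, was at 294 and 259.7 normalised CPM in the control libraries, 220.1 and 216 with romidepsin, 148 and 133 with quisinostat and 237 and 223 with mivebresib. The drug libraries were all below the controls and the quisinostat libraries lowest. On the log2 scale it changed by -0.34 ± 0.095 (adjusted p = 0.0265) with romidepsin, by -0.98 ± 0.096 (adjusted p = 6.65e-05) with quisinostat and by -0.27 ± 0.095 (adjusted p = 0.0451) with mivebresib. SRSF2, which shares 1106 exon bases with MFSD11 on the other strand, changed by -0.29, -0.96 and -0.27 in that order. The mivebresib calls of SRSF3 and SRSF2 were lost under 12 and 10 of the other settings tried, and the romidepsin calls under 8 and 9. SRSF1, the founding SR protein, changed by -0.50, -0.79 and -0.56, and SRSF7 by -0.65, -0.77 and -0.37, each past the test with every drug. SRSF1 shares 59.4% of its 31-base words with AC015813.2, a gene model that overlaps it on the same strand and is not among the counted symbols.

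SRSF4 and SRSF6 passed the test with the HDAC inhibitors only: SRSF4 changed by -0.52 and -0.45, and SRSF6 by -0.47 and -0.39, with romidepsin and quisinostat. SRSF8 fell with romidepsin (-0.29) and mivebresib (-0.56), and SRSF10 with quisinostat (-0.66). The romidepsin call of SRSF8 was lost under 13 settings and the quisinostat call of SRSF6 under 4. SRSF5 was the SR gene that fell with the HDAC inhibitors and rose with mivebresib, at log2 FC -0.45 ± 0.10 (adjusted p = 0.0113), -0.60 ± 0.10 (adjusted p = 0.00122) and 0.28 ± 0.100 (adjusted p = 0.0451), but the last was lost under 9 settings, and without mivebresib replicate 2 it became 0.15 (adjusted p = 0.306). SRSF9 and SRSF11 were past the test with no drug. SRSF9 ran from 109.6 to 153 normalised CPM between the 2 control libraries, a wider gap than between the libraries of any drug.

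SRSF12 (chr6:89095959-89118081) was by far the least abundant SRSF gene, with 6 and 10 counts in the control libraries, 16 and 19 with romidepsin, 28 and 31 with quisinostat and 4 and 6 with mivebresib. Quisinostat libraries were the highest, followed by romidepsin, and mivebresib overlapped the control range. SRSF12 changed by 1.05 ± 0.40 (adjusted p = 0.0795) on the log2 scale with romidepsin, by 1.69 ± 0.38 (adjusted p = 0.00541) with quisinostat and by -0.66 ± 0.51 (adjusted p = 0.339) with mivebresib. The gene reached the minimum count only in the libraries of the HDAC inhibitors, so its presence among the tested genes depended on the groups in which it was high.

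Among genes of the branch point complex falls were called with the HDAC inhibitors. None of the 9 SF3 genes rose with any drug. With romidepsin 2 fell (22.2%), with quisinostat 6 (66.7%) and with mivebresib 0, beside 15.8%, 25.1% and 24.1% of all symbols. Among symbols with a mean log2 CPM of at least 5 the shares that fell were 19.6%, 39.7% and 26.4%. The romidepsin count was thus near that share. For mivebresib the largest change was -0.22 ± 0.12 (adjusted p = 0.185) in SF3A2. SF3B3, a scaffold of SF3B, was at 75.8 and 90.7 normalised CPM in the control libraries, 66.5 and 69.9 with romidepsin, 51.3 and 51.4 with quisinostat and 77.2 and 74.6 with mivebresib. Quisinostat libraries were clear of all others, at log2 FC -0.70 ± 0.096 (adjusted p = 0.000427), the largest fall of the family, against -0.29 ± 0.096 (adjusted p = 0.0503) with romidepsin and -0.13 ± 0.096 (adjusted p = 0.283) with mivebresib. SF3A2 fell with romidepsin (-0.60) and quisinostat (-0.66), as did SF3A1 (-0.42 and -0.35). SF3A2 shares 398 exon bases with PLEKHJ1 on the other strand.

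SF3B1 (chr2:197389784-197435091), which contacts the branch point, was at 406 and 495 normalised CPM in the control libraries, 471 and 445 with romidepsin, 314 and 337 with quisinostat and 476 and 521 with mivebresib. The quisinostat libraries were below all others, at log2 FC -0.47 ± 0.11 (adjusted p = 0.008). This call was lost without quisinostat replicate 1 (adjusted p = 0.0727) and with library size as the only scaling, at -0.27 (adjusted p = 0.0724). SF3A3 and SF3B4 fell with quisinostat (-0.30 and -0.32), calls that were lost under 5 and 7 settings. SF3B2, SF3B5 and SF3B6 were past the test with no drug; for SF3B2 the 95% interval with quisinostat was -0.33 to 0.048.

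Among the core factors U2AF2 fell most. U2AF2 (chr19:55654146-55674715), the subunit that binds the polypyrimidine tract and whose upstream sequence is printed above, was at 149 and 147 normalised CPM in the control libraries, 82.6 and 85.3 with romidepsin, 61.5 and 57.3 with quisinostat and 166 and 164 with mivebresib. HDAC inhibitor libraries were far below the controls, quisinostat more so, and mivebresib libraries were above them. The log2 FC was -0.82 ± 0.075 (adjusted p = 0.000191) with romidepsin, -1.32 ± 0.076 (adjusted p = 4.78e-06) with quisinostat, a 2.50-fold fall, and 0.15 ± 0.074 (adjusted p = 0.124) with mivebresib; upper-quartile scaling and the filter at a mean CPM of 5 put the last past the test (adjusted p = 0.0498 and 0.0496). U2AF1 (chr21:43092956-43107587), which reads the AG at the end of the intron, was at 74.2 and 66.8 normalised CPM in the control libraries, 57.3 and 60.3 with romidepsin, 33.0 and 36.6 with quisinostat and 55.8 and 50.1 with mivebresib. All drug libraries were lower than the controls and quisinostat libraries lowest, at log2 FC -0.26 ± 0.095 (adjusted p = 0.0679), -1.02 ± 0.097 (adjusted p = 5.84e-05) and -0.41 ± 0.096 (adjusted p = 0.00765). The mivebresib call was lost without mivebresib replicate 2 (adjusted p = 0.0694). U2AF1 shares 96.2% of its 31-base words with other genes, mainly the copy U2AF1L5, which had 197 to 725 counts. With both summed, the log2 FC was -0.29 (adjusted p = 0.0636), -0.64 (adjusted p = 0.0011) and -0.34 (adjusted p = 0.0266).

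PTBP1 fell with every drug and PTBP2 with mivebresib alone. PTBP1 (chr19:797075-812327), the repressor of neuronal exons, was at 317 and 343 normalised CPM in the control libraries, 224 and 228 with romidepsin, 174 and 173 with quisinostat and 281 and 271 with mivebresib. The groups did not overlap, and from high to low their order was control, mivebresib, romidepsin and quisinostat. Romidepsin moved it by -0.55 ± 0.080 (adjusted p = 0.00169) on the log2 scale, quisinostat by -0.93 ± 0.081 (adjusted p = 3.50e-05) and mivebresib by -0.26 ± 0.080 (adjusted p = 0.0279), and leaving out either mivebresib library ended the last call (adjusted p = 0.0772 and 0.144). PTBP2 (chr1:96721665-96823738), its neuronal relative, was at 6.38 and 6.03 normalised CPM in the control libraries, 6.53 and 6.61 with romidepsin, 6.49 and 6.85 with quisinostat and 2.85 and 3.70 with mivebresib. Here the HDAC inhibitor libraries were near the controls and the mivebresib libraries lower. PTBP2 changed by -0.92 ± 0.15 (adjusted p = 0.00147) with mivebresib, 0.08 ± 0.14 (adjusted p = 0.688) with romidepsin and 0.10 ± 0.14 (adjusted p = 0.56) with quisinostat, with a 95% interval of -0.22 to 0.43 for quisinostat. PTBP3 fell with quisinostat (-0.41) and mivebresib (-0.35).

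Several neuronal factors rose with the HDAC inhibitors, both NOVA genes among them. Of the 7 tested, 2 rose with romidepsin and 5 with quisinostat, and none fell; with mivebresib CELF5 rose and PTBP2 fell. The shares of all symbols that rose were 15.2%, 28% and 22.2%. Only 4 of the 7 (PTBP2, NOVA1, NOVA2 and CELF5) reached the minimum of 10 counts in every library. CELF4, CELF6 and RBFOX3 passed the filter through drug groups alone, so counts and medians over the 7 lean upwards by construction. Their median log2 FC was 0.94 with romidepsin, 1.91 with quisinostat and 0.94 with mivebresib. With CELF4 set at its bound the first and last became 0.35 and 0.43. With every RBFOX, NOVA and CELF gene and PTBP2 counted as neuronal the mivebresib median was -0.037.

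NOVA2 (chr19:45933734-45973546), a regulator of neuron-specific exons whose upstream sequence held neither string, was at 10.3 and 10.2 normalised CPM in the control libraries, 24.9 and 26.6 with romidepsin, 33.0 and 34.3 with quisinostat and 10.3 and 10.5 with mivebresib. Both HDAC inhibitor groups lay wholly above the controls, while the mivebresib libraries were at the control level. NOVA2 changed on the log2 scale by 1.33 ± 0.086 (adjusted p = 6.17e-05) with romidepsin, a 2.51-fold rise, 1.72 ± 0.086 (adjusted p = 2.60e-06) with quisinostat, 3.29-fold, and 0.02 ± 0.090 (adjusted p = 0.846) with mivebresib, with a 95% interval of -0.18 to 0.23. NOVA1 (chr14:26443093-26597754), its paralogue, was at 1.31 and 1.43 normalised CPM in the control libraries, 2.92 and 2.34 with romidepsin, 3.55 and 3.44 with quisinostat and 0.878 and 1.51 with mivebresib. The pattern was that of higher HDAC inhibitor libraries, with mivebresib replicates on either side of the controls. On the log2 scale it changed by 0.94 ± 0.26 (adjusted p = 0.0256) with romidepsin, by 1.35 ± 0.25 (adjusted p = 0.00214) with quisinostat and by -0.19 ± 0.29 (adjusted p = 0.614) with mivebresib. The romidepsin call was lost without control replicate 1 (adjusted p = 0.0611) or romidepsin replicate 1 (adjusted p = 0.154).

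CELF genes did not move as one. CELF5 (chr19:3224703-3297076) was at 0.638 and 0.475 normalised CPM in the control libraries, 0.618 and 0.551 with romidepsin, 3.07 and 2.74 with quisinostat and 3.33 and 3.09 with mivebresib. Quisinostat and mivebresib libraries were all higher than every control and romidepsin library, which overlapped each other. The log2 FC was 2.37 ± 0.23 (adjusted p = 7.11e-05) with quisinostat and 2.52 ± 0.23 (adjusted p = 6.64e-05) with mivebresib, 5.18-fold and 5.72-fold, against 0.07 ± 0.30 (adjusted p = 0.897) with romidepsin, where the 95% interval was -0.61 to 0.74. CELF2 (chr10:10798397-11336675), a general factor here that neurons and muscle also use, was at 13.5 and 12.5 normalised CPM in the control libraries, 17.6 and 16.2 with romidepsin, 26.2 and 26.6 with quisinostat and 7.79 and 7.26 with mivebresib. The 4 groups did not overlap: HDAC inhibitor libraries were above the controls and mivebresib libraries below. CELF2 changed by 0.38 ± 0.094 (adjusted p = 0.0176) on the log2 scale with romidepsin, by 1.02 ± 0.093 (adjusted p = 4.47e-05) with quisinostat and by -0.79 ± 0.10 (adjusted p = 0.000337) with mivebresib, and the romidepsin call was lost without either romidepsin library (adjusted p = 0.137 and 0.05). CELF1, the widely expressed member, changed by -0.56 ± 0.090 (adjusted p = 0.000927) with quisinostat and by -0.10 with mivebresib, the latter not past the test.

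The remaining CELF genes were near the limit of detection. CELF4 had 1 and 0 counts in the control libraries, 3 and 5 with romidepsin, 20 and 10 with quisinostat and 5 and 3 with mivebresib. The control group was at the floor of 3 counts per library, and the quisinostat mean was at least 4.41-fold higher than that floor (edgeR adjusted p = 0.00353). CELF4 reached the minimum count in the quisinostat libraries alone, so a rise was favoured by the filter, and nothing is read from that test. CELF6 had 0 and 5 counts in the control libraries, 15 and 1 with romidepsin, 8 and 28 with quisinostat and 0 and 15 with mivebresib. It was past the test with no drug, and shares 100% of its 31-base words with other genes. Of these words 93.5% occur in AC009690.1, a gene model that overlaps it on the same strand and is not among the counted symbols. CELF3 had 0 and 0 counts in the control libraries, 0 and 3 with romidepsin, 3 and 4 with quisinostat and 1 and 0 with mivebresib and was not tested.

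RBFOX genes were split by level. RBFOX2 (chr22:35738736-36028425), the widely expressed member, was at 212 and 207 normalised CPM in the control libraries, 253 and 252 with romidepsin, 187 and 188 with quisinostat and 168 and 170.0 with mivebresib. Romidepsin libraries were above the controls and the others below, at log2 FC 0.27 ± 0.073 (adjusted p = 0.0236) (romidepsin), -0.16 ± 0.073 (adjusted p = 0.0921) (quisinostat) and -0.31 ± 0.073 (adjusted p = 0.00865) (mivebresib). The romidepsin call was lost without either romidepsin library (adjusted p = 0.14 and 0.118), and the mivebresib call without mivebresib replicate 1 (adjusted p = 0.0524). RBFOX3 (chr17:79089345-79516148), whose product is the neuronal antigen NeuN, had 6 and 7 counts in the control libraries, 6 and 5 with romidepsin, 25 and 31 with quisinostat and 13 and 12 with mivebresib. Quisinostat libraries were highest, mivebresib libraries next and romidepsin libraries within the control range or below it. RBFOX3 changed by 1.91 ± 0.36 (adjusted p = 0.00241) with quisinostat, 0.94 ± 0.41 (adjusted p = 0.0905) with mivebresib and -0.30 ± 0.47 (adjusted p = 0.712) with romidepsin. The gene reached the minimum count in the quisinostat and mivebresib libraries only, so a rise with either drug was favoured by the filter. A further 3 members, of the HNRNP and RBFOX families, had at most 3 counts in every library.

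Neuron markers rose with the HDAC inhibitors. With mivebresib their sum was also higher, mostly through MAP2, while the sum of the neuronal factors overlapped the control range. Of 6 markers (SNAP25, SYT1, STMN2, MAP2, SYN1 and RBFOX3 itself), none fell. Romidepsin raised 5, quisinostat 6 and mivebresib 2, beside 15.2%, 28% and 22.2% of all symbols. STMN2, SYN1 and RBFOX3 did not reach the minimum count in the control libraries. They passed the filter through drug groups alone, so these counts lean upwards by construction. The 6 markers summed to 23.4 and 23.9 normalised CPM in the control libraries and 49.9 and 45.6 with romidepsin. The sums were 115.8 and 116.7 with quisinostat, and 111.0 and 122.7 with mivebresib. MAP2, which encodes a dendritic microtubule protein, was most of this sum in every library. It was at 21.96 and 22.39 normalised CPM in the control libraries and 107.6 and 119.3 with mivebresib. SYN1 was also higher with mivebresib, at 2.27 and 2.01 against 0.248 and 0.183 in the controls. SNAP25 was lower there, at 0.366 and 0.216 against 0.531 and 0.548, without a call. The mivebresib libraries of SYT1 lay on either side of the controls. STMN2 was at 0 in control replicate 2 and mivebresib replicate 2, and no other marker of the list was at 0. Melanocyte markers called lower were 1, 3 and 4 of 6 tested with romidepsin, quisinostat and mivebresib. The part of these markers in the members' changes was not tested.

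**Figure D4:**
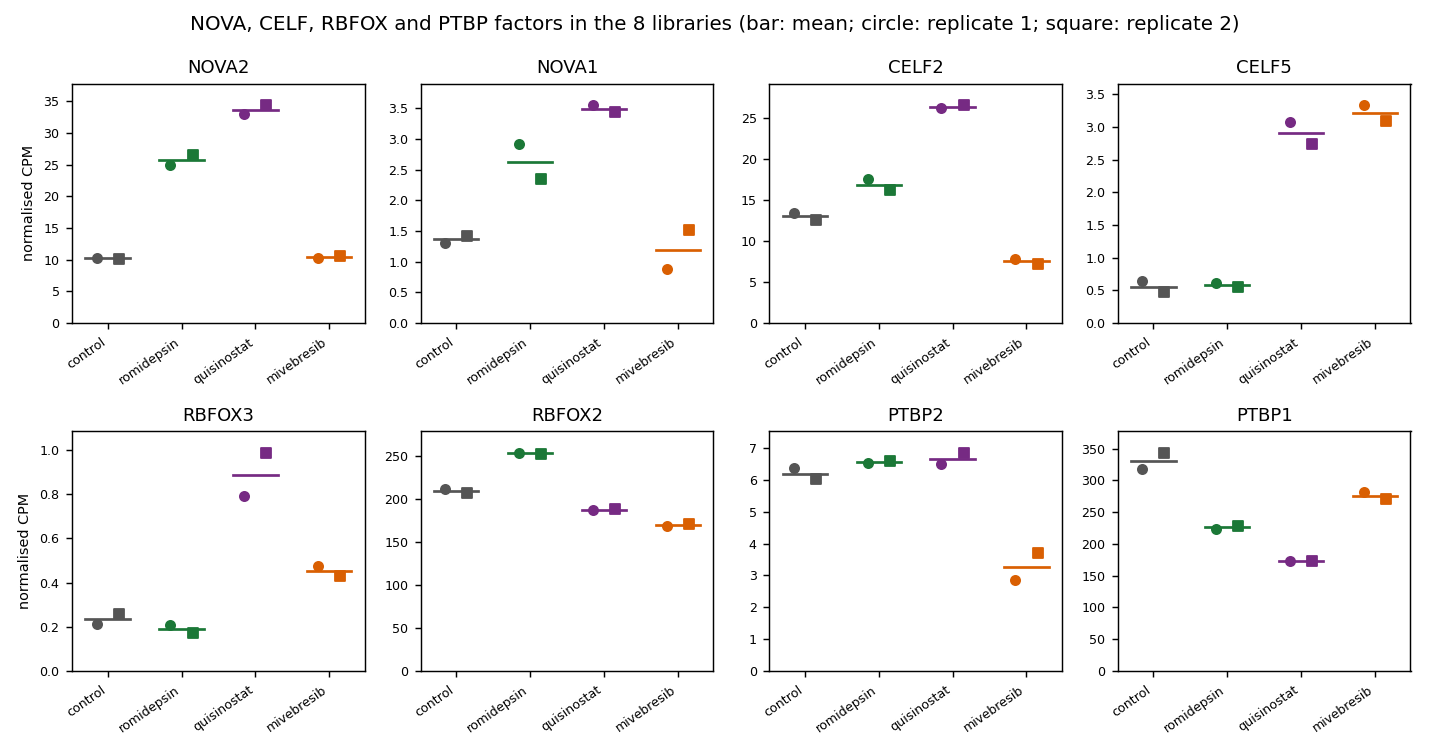
Normalised CPM (vertical axis, from 0) of 8 NOVA, CELF, RBFOX and PTBP genes in the 2 libraries of each group; circles are replicate 1, squares replicate 2 and bars the group mean. NOVA2 is raised with both HDAC inhibitors and at the control level with mivebresib, CELF5 is raised with quisinostat and mivebresib, and PTBP2 is lowest with mivebresib.

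Drugs were then compared with each other directly in the same model, so that a difference between drugs was itself tested. Between the 2 HDAC inhibitors at 40 nM, quisinostat was lower than romidepsin for 27 members and higher for 5, against 14.6% and 21% of all symbols and 26.7% and 8.89% of those with a mean log2 CPM of at least 5. All of the 27 were general factors. The largest gap was HNRNPM at -0.87 ± 0.084 (adjusted p = 0.000224), followed by U2AF1 at -0.76 (-0.35 with its copy U2AF1L5 added, adjusted p = 0.0324), HNRNPL at -0.74, HNRNPDL at -0.74 and HNRNPC at -0.73. The 5 higher members were CELF5 (2.30), RBFOX3 (2.21), CELF2 (0.64), SF3B5 (0.53) and NOVA2 (0.39). RBFOX3 did not reach the minimum count in the romidepsin libraries. Several factors that fell with both drugs showed no difference past the test. SRSF4 was 0.07 ± 0.082 (adjusted p = 0.53), HNRNPH2 was -0.01 ± 0.074 (adjusted p = 0.939) and SF3A1 was 0.07 ± 0.079 (adjusted p = 0.552), with 95% intervals of -0.12 to 0.26, -0.18 to 0.16 and -0.11 to 0.25.

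Mivebresib and quisinostat differed for 43 of the 55 tested members, beside 57.7% of all symbols. General factors were higher with mivebresib in 33 cases and lower in 5, where 26.2% and 31.5% of all symbols were higher and lower. Among symbols with a mean log2 CPM of at least 5 the balance was the other way, at 38.7% and 18.5%, the same direction as in the general factors. By family, 16 of 20 HNRNP, 8 of 12 SRSF, 5 of 9 SF3 and both U2AF genes were higher with mivebresib. U2AF2 differed by 1.47 ± 0.076 (adjusted p = 2.25e-06), a 2.78-fold difference, HNRNPH1 by 1.47 ± 0.097 (adjusted p = 6.81e-06), HNRNPC by 1.19 ± 0.094 (adjusted p = 1.76e-05), HNRNPL by 1.18 ± 0.075 (adjusted p = 5.83e-06) and HNRNPAB by 1.16 ± 0.18 (adjusted p = 0.000728). With U2AF1L5 added, U2AF1 differed by 0.30 (adjusted p = 0.0373) in place of 0.60. The 5 general factors lower with mivebresib were SRSF12 (-2.34), CELF2 (-1.81), SRSF8 (-0.45), HNRNPD (-0.31) and HNRNPUL1 (-0.24). SRSF12 passed the filter through the HDAC inhibitor libraries alone.

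Several neuronal factors were lower with mivebresib in this comparison. NOVA2 was lower with mivebresib than with quisinostat by -1.69 ± 0.086 (adjusted p = 2.04e-06), NOVA1 by -1.54 ± 0.26 (adjusted p = 0.000982), PTBP2 by -1.02 ± 0.15 (adjusted p = 0.000526) and RBFOX3 by -0.96 ± 0.32 (adjusted p = 0.0306). CELF5 was the exception with adequate counts, at 0.14 ± 0.18 (adjusted p = 0.532) and a 95% interval of -0.28 to 0.57. CELF4 was called lower too (-1.69), but it reached the minimum count in the quisinostat libraries alone, so that direction was favoured by the filter and nothing is read from it. The count of 5 lower among 7 tested therefore leans downwards by construction. Of the 4 that reached the minimum in every library, NOVA1, NOVA2 and PTBP2 were lower and CELF5 was not called. CELF6 did not pass the test. None of the 7 was higher with mivebresib past the test.

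**Figure D5:**
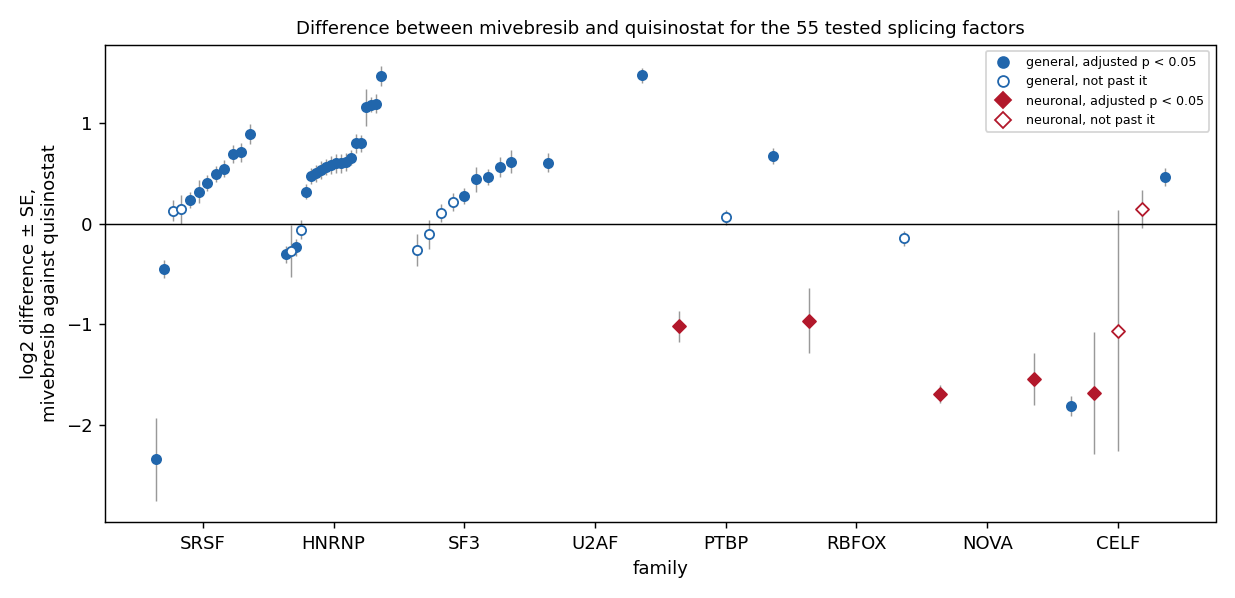
Log2 difference between mivebresib and quisinostat (vertical axis, ± SE) for the 55 tested splicing factors, by family and in order of size within each; circles are general and diamonds neuronal factors, filled where the adjusted p was below 0.05. General factors lie mostly above 0 (33 higher, 5 lower with mivebresib), and 5 of the 7 neuronal factors lie below it past the test, CELF4 among them having passed the count filter through quisinostat alone.

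Against romidepsin, mivebresib was higher for 20 members and lower for 12, beside 23.7% and 25.2% of all symbols and 26.3% and 23.4% of those with a mean log2 CPM of at least 5. U2AF2 (0.97), HNRNPAB (0.93), HNRNPH1 (0.89) and SRSF5 (0.73) were the general factors with the largest positive differences, and CELF5 (2.45) and RBFOX3 (1.24) were the neuronal ones. RBFOX3 reached the minimum count in the mivebresib libraries but not in those of romidepsin, so its direction was favoured by the filter. Among the 12 lower members were NOVA2 (-1.30), NOVA1 (-1.14), PTBP2, CELF2 (-1.17), HNRNPD (-0.76) and RBFOX2 (-0.58). The comparison sets 2 drug classes at different doses side by side.

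Other genes of the splicing machinery, 71 in a separate list of which 67 were tested, were read beside the members. With romidepsin 4 rose and 10 fell, with quisinostat 4 rose and 31 fell, and with mivebresib 14 rose and 17 fell. The shares that fell were 14.9%, 46.3% and 25.4%, beside 15.8%, 25.1% and 24.1% of all symbols. The shares that rose were 5.97%, 5.97% and 20.9%, beside 15.2%, 28% and 22.2%. Falls with romidepsin and both directions with mivebresib were thus near the shares over all symbols. The medians of these genes were -0.13, -0.24 and -0.026. Core proteins of the small nuclear ribonucleoproteins fell in 5, 10 and 5 of 14 cases (35.7%, 71.4% and 35.7%) for romidepsin, quisinostat and mivebresib, and none rose. The early partners of U2 fell in 3, 9 and 5 of 11 cases (27.3%, 81.8% and 45.5%). The tri-snRNP and catalytic group differed, with 1, 0 and 9 of 21 higher (4.76%, 0% and 42.9%) and 1, 5 and 0 lower (4.76%, 23.8% and 0%). SR kinases, which phosphorylate SR proteins, had 0, 0 and 3 of 8 higher (0%, 0% and 37.5%) and 0, 1 and 0 lower.

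SRRM2, a scaffold of nuclear speckles, was at 339.8 and 469.6 normalised CPM in the control libraries, 236 and 225 with romidepsin, 206 and 238 with quisinostat and 623 and 739 with mivebresib. The HDAC inhibitor libraries were below the controls and the mivebresib libraries above, at log2 FC -0.81 ± 0.16 (adjusted p = 0.00629) (romidepsin), -0.87 ± 0.16 (adjusted p = 0.00212) (quisinostat) and 0.75 ± 0.16 (adjusted p = 0.00508) (mivebresib). PUF60, a partner of U2AF, changed by -0.80 ± 0.092 (adjusted p = 0.000564) with romidepsin, -0.85 ± 0.092 (adjusted p = 0.000118) with quisinostat and 0.12 ± 0.092 (adjusted p = 0.323) with mivebresib. MBNL3 rose with each drug from a low base, with 2 and 2 counts in the control libraries, 8 and 11 with romidepsin, 45 and 39 with quisinostat and 13 and 13 with mivebresib. It passed the count filter through drug libraries alone, so a rise was favoured by the filter. ESRP1, the epithelial regulator, was at 26.1 and 17.9 normalised CPM in the control libraries, 19.1 and 19.2 with romidepsin, 10.9 and 10.2 with quisinostat and 0.512 and 0.539 with mivebresib. It fell with quisinostat, at log2 FC -1.06 ± 0.16 (adjusted p = 0.000807), and far more with mivebresib, at -5.37 ± 0.25 (adjusted p = 2.61e-06).

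RBM24, a muscle regulator, was at 14.7 and 11.7 normalised CPM in the control libraries, 16.5 and 18.5 with romidepsin, 35.5 and 33.8 with quisinostat and 1.79 and 2.52 with mivebresib. It rose with quisinostat (1.39 ± 0.14 (adjusted p = 8.42e-05)) and fell with mivebresib (-2.62 ± 0.18 (adjusted p = 1.50e-05)), and romidepsin gave 0.40 ± 0.14 (adjusted p = 0.0641). SRRM3, which promotes neuronal microexons, changed by -0.36 ± 0.13 (adjusted p = 0.0684) with romidepsin, -1.03 ± 0.13 (adjusted p = 0.000291) with quisinostat and -2.52 ± 0.14 (adjusted p = 6.63e-06) with mivebresib. ELAVL2, a neuronal RNA-binding protein, changed by 0.56 ± 0.12 (adjusted p = 0.0076) with romidepsin, 0.06 ± 0.12 (adjusted p = 0.694) with quisinostat and -0.99 ± 0.13 (adjusted p = 0.000347) with mivebresib. ELAVL3, of the same family, had 1 and 2 counts in the control libraries and 7 and 1 with romidepsin. It had 11 and 10 with quisinostat and 2 and 1 with mivebresib. ELAVL3 reached the minimum count in the quisinostat libraries alone (edgeR adjusted p = 0.0304 there). That direction was favoured by the filter, and nothing is read from it.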

How the data were processed

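The deposited counts are raw read counts for 35238 gene symbols, made by the authors through BioJupies from strand-specific paired-end reads. The submitters' processing notes name hg38; the aligner, the annotation and whether counting used strand are not given in the sources used here, so opposite-strand neighbours are uncertain. The authors' log CPM and quantile-normalized tables were not used.

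Counts went into the edgeR package, version 4.0.16, under R 4.3.3 (scaling by TMM, filterByExpr, quasi-likelihood test, 1 model of 8 libraries, Benjamini-Hochberg over 15085 symbols). A call is an adjusted p below 0.05, and counts beyond a log2 FC of 1.5, the study's threshold, are alternatives. SE and 95% intervals come from that fit. With 2 libraries a group, precision rests on their number rather than on depth. DESeq2 1.42.0 and limma 3.58.1 were alternatives. On simulated counts for quisinostat against control, edgeR recovered 49% of 1.5-fold and 89% of 3-fold changes among 200 changed of 14731 genes, with 6 false calls. In the data 53.2% of symbols were called for quisinostat, a far larger share than was changed in the simulation. These rates therefore need not hold for that comparison. Level comparisons between genes used CPM per kb of median GENCODE 29 transcript length, which also gave positions, overlaps and shared 31-base words. Promoters came from RefSeq.

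Members and lists were chosen with earlier results of these data known. Values by library are given for members called with a log2 FC of at least 1 for any drug, the called member with the largest change in each family and the 3 most abundant members, with a few other members added after their values were seen. From the other splicing genes, those with the 2 largest called rises and falls under each drug were named.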

Additional observations from a re-analysis of the deposited data

How the results depend on the processing

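The log2 FC threshold of 1.5, added to the adjusted p, left 0, 5 and 1 members higher with romidepsin, quisinostat and mivebresib and 0 lower with each, and 2, 2 and 5 differing between quisinostat and romidepsin, mivebresib and romidepsin, and mivebresib and quisinostat. With a mean CPM of at least 5 as the filter, 3 members rose with romidepsin and 3 with quisinostat, the general median with quisinostat was -0.50, and the neuronal medians were 1.01 with quisinostat and -0.42 with mivebresib. A fit of only the 4 libraries of a comparison gave 2 higher and 12 lower with romidepsin, 2 higher with mivebresib and a neuronal median of 0.031 with mivebresib. Upper-quartile factors gave general medians of -0.18, -0.45 and -0.11 for the 3 drugs, and library size alone gave -0.19 and -0.38 for romidepsin and quisinostat. The neuronal median with quisinostat was 2.26 with DESeq2, 2.35 without a filter and 1.53 under the broad definition of neuronal, which gave -0.037 with mivebresib.

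Leaving out 1 library in turn gave 1 to 5 members higher and 7 to 27 lower with romidepsin, 7 to 11 and 32 to 38 with quisinostat, and 2 to 6 and 12 to 18 with mivebresib. The lowest romidepsin counts were those without romidepsin replicate 1, and the lowest count higher with mivebresib was that without mivebresib replicate 2. Members differing ran from 21 to 34 between quisinostat and romidepsin, lowest without quisinostat replicate 1, from 22 to 33 between mivebresib and romidepsin, and from 34 to 46 between mivebresib and quisinostat. General medians ran from -0.34 to -0.19, from -0.60 to -0.54 and from -0.18 to -0.11 for romidepsin, quisinostat and mivebresib. Neuronal medians ran from 0.091 (without romidepsin replicate 1) to 1.09, from 1.68 to 2.07, and from 0.011 (without mivebresib replicate 2) to 1.08. The causes of these shifts were not tested. For single members, 1189 values kept their direction and side of the threshold when a library was left out, 114 lost and 17 gained a call. Under the other settings 1389 were kept, 67 lost and 10 gained. No value reversed past the threshold under any setting tried.

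Replicate numbers did not pair the samples, since deviations of same-numbered libraries correlated from -0.162 to 0.158 over the 6 pairs of groups. With a replicate block 5 members rose and 21 fell with romidepsin, 8 and 37 with quisinostat, and 4 and 18 with mivebresib. Having 2 libraries a group, and for CELF3, CELF4, CELF6, RBFOX1 and RBFOX3 also low counts, limits what these values can show.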

Other observations

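HNRNPA2B1, a close relative of HNRNPA1 that the naming pattern passed over, had 19199 and 18077 counts in the control libraries, 18130 and 17653 with romidepsin, 10674 and 10393 with quisinostat and 11118 and 11871 with mivebresib. The quisinostat and mivebresib libraries were below all others. Its log2 FC in the same edgeR fit was -0.12 ± 0.082 (adjusted p = 0.281) with romidepsin, -1.003 ± 0.083 (adjusted p = 2.67e-05) with quisinostat and -0.69 ± 0.082 (adjusted p = 0.000249) with mivebresib. Pseudogenes of HNRNPA1, summed, had 310 to 359 counts in the control libraries, 434 and 483 with romidepsin, 483 and 492 with quisinostat, and 128 and 169 with mivebresib. The sum with mivebresib was below that of every other library, while the sums with quisinostat were above the controls although HNRNPA1 itself fell with both drugs.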
